A study of Mus musculus with 8 samples.

Results

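The comparison of 48 h with 24 h after cisplatin asks what changed in the renal proximal tubule during the second day of acute injury. It used 4 of the 8 libraries of the series, the 2 taken at 24 h (a and b) and the 2 taken at 48 h (a and b), chosen by the time given in the labels. All came from male C57BL/6 mice in which acute kidney injury was caused by cisplatin given into the peritoneum at 30 mg/kg. The age of the mice and the number of animals behind a library are not given in the sources used here, and no genotype other than the strain is named. The 2 libraries at 0 h and the 2 at 72 h entered the fit for their spread and are quoted only as context. From the cortex of the kidney proximal tubular cells were isolated and lysed in Trizol, ribosomal RNA was removed, and libraries were made with a kit whose name in the labels is that of a small RNA kit. The design text calls the libraries of a time biological duplicates without saying that they came from separate animals, so every p-value below measures the spread between these libraries. Levels of linear RNA are FPKM (fragments scaled by transcript length and by library size), and circular RNAs are counts of reads over a back-splice.

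The proximal tubule reabsorbs most of the filtered phosphate, glucose and amino acids through carriers in its brush border, and it runs on fatty acid oxidation rather than glycolysis. It takes up cisplatin from the blood through the organic cation transporter Slc22a2 and is the part of the nephron that the drug injures most. Known responses to the drug are p53 signalling, loss of transporters, release of chemokines and the appearance of injury markers such as Havcr1 (KIM-1), a membrane receptor for phosphatidylserine on dying cells.

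The markers of the labelled cell type were present in all 4 libraries. Slc34a1, the phosphate carrier of the brush border, had 616 and 529 FPKM at 24 h against 265 and 278 FPKM at 48 h, and the endocytic receptor Lrp2 (megalin) had 563 and 415 against 388 and 459 FPKM. FPKM summed to 375186 and 348891 at 24 h and to 314173 and 317983 at 48 h. More rows were above 0 at 48 h, 17704 and 17656 against 16171 and 16687, and among 1325 rows of olfactory and vomeronasal receptors 352 and 314 had a value over 0 in the 48 h libraries, compared with 71 and 91 in those of 24 h. Read counts behind the FPKM values are unknown. Pearson's r of log2(FPKM + 1) was 0.989 between the 24 h libraries and 0.990 between the 48 h libraries, against 0.969 to 0.978 across the times.

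As deposited, more rows fell than rose over the second day, and abundant rows fell most often. Of 10757 rows that reached 1 FPKM in 2 or more of the 8 libraries, 1200 were higher at 48 h (11.2% of rows tested) and 1846 were lower (17.2%) at an adjusted p under 0.05 (limma on log2(FPKM + 1), 2-sided, Benjamini-Hochberg). The difference reached 2-fold on that scale in 72 of the higher and 99 of the lower rows, and the median over all rows tested was -0.03. Counts of called genes in the lists below are to be read beside the 11.2% higher and 17.2% lower of all rows tested. A list near these shares is not set apart from all rows. Among 491 rows with a mean over the 8 libraries of at least 100 FPKM, 247 were lower (50.3%) and 25 higher (5.09%). Among 4267 rows under 5 FPKM 312 were lower (7.31%) and 506 higher (11.9%). That mean includes the 0 h and 24 h libraries, so rows high at these times reach the top group more readily. The 48 h libraries did not overlap the 24 h libraries in any of the 3046 rows called, nor in 6810 of all 10757 rows tested. For a called gene, the lack of overlap given below therefore adds nothing to its call. The balance of directions depends on scaling: higher rows made up 39.4% of calls as deposited and 50.2% after quantile normalisation (1576 higher, 1562 lower). Leaving out 48 h library a gave 632 higher and 1191 lower rows, leaving out 48 h library b gave 677 and 1162, and leaving out 24 h library a gave 902 and 1174. In bulk RNA fewer cells of a type and less RNA per cell cannot be told apart, and this holds for every level given here.

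**Figure D1:**
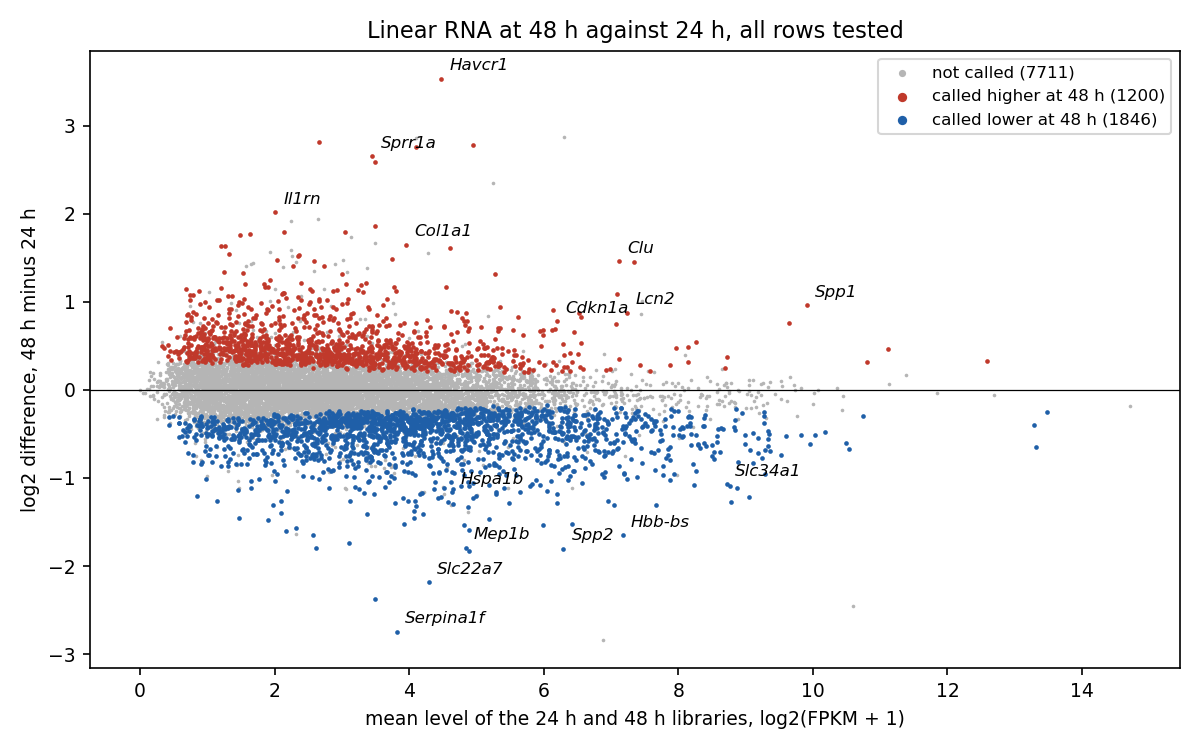
Each point is 1 row of linear RNA, with its mean level over the 24 h and 48 h libraries on the x axis, as log2(FPKM + 1), and its log2 difference (48 h minus 24 h) on the y axis. Called lower were 1846 rows and called higher 1200. By the mean over the 8 libraries, the share called lower grew from 7.31% under 5 FPKM to 50.3% at 100 FPKM or more. The share called higher was 11.9% and 5.09% at these levels.

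The largest rise was that of Havcr1. It was listed at 2.46 and 2.53 FPKM at 24 h and at 32.9 and 47.2 FPKM at 48 h, a 16.0-fold rise in the means (log2 difference 3.53 ± 0.141 SE, adjusted p = 1.1e-05). Both 48 h libraries stood far above both 24 h libraries, and the level at 72 h was higher still, 259.5 and 262 FPKM. The row, chr11:46682647-46780361, reaches past the annotated gene. Sprr1a, a cross-linked precursor of the cornified envelope of stratified epithelia, went from 2.22 and 1.76 FPKM to 20.1 and 15.8 FPKM (log2 difference 2.66 ± 0.179, adjusted p = 6.5e-05). Il1rn, the antagonist of the interleukin-1 receptor, went from 0.607 and 0.592 to 5.90 and 5.06 FPKM (2.02 ± 0.102, adjusted p = 1.7e-05). In both genes the libraries of the times were well apart. Their start regions are shown because each holds the letters TGANTCA, a core of AP-1 sites, searched on both strands, and AP-1 genes are among the lists below. The sequences are RefSeq promoter windows of GRCm38.p6, printed 5′ to 3′ on the gene's strand with the match in capitals: Sprr1a on the minus strand of chromosome 3 (chr3:92485882-92486051, matches starting at -146 and -116 from the start) and 1 of 3 windows of Il1rn on the plus strand of chromosome 2 (chr2:24336690-24336859, match at -141).
Sprr1a: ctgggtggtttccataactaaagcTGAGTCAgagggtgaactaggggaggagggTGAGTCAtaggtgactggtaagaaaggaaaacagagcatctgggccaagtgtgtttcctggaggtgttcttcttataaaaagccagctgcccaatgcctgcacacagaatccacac
Il1rn: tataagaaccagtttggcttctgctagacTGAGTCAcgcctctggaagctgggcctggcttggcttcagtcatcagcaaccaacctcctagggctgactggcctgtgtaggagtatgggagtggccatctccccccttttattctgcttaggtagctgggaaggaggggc
The same letters stood in 9 of 58 windows (15.5%) of genes that rose at least 2-fold, in 8 of 110 windows (7.27%) of genes that fell at least 2-fold, in 4.54% of windows of all rows tested and in 6.75% of all 32851 windows. Among all genes called higher they stood in 79 of 1169 windows (6.76%), and among all called lower in 78 of 1805 (4.32%). The 58 windows belong to 47 genes, so some genes count more than once. In all 13 motifs were searched in windows from 250 bases before to 50 after the start, and the windows printed here were picked after the matches were seen. A match is a description of the sequence.

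The 12 largest rises included other genes of known roles. Ces2e, a carboxylesterase, rose from 3.71 and 3.96 to 15.2 and 18.0 FPKM (log2 difference 1.86). Slpi, a secreted inhibitor of neutrophil elastase whose row reaches past the gene, rose from 0.374 and 0.167 to 3.81 and 2.81 FPKM (1.76). Crct1, a gene of the epidermal differentiation complex like Sprr1a, rose from 0.209 and 0.123 to 2.74 and 2.51 FPKM (1.64). Gc, the plasma carrier of vitamin D, rose from 13.3 and 8.98 to 31.4 and 40.3 FPKM (1.61). Shisal2a went from 0 and 0.178 to 1.48 and 3.56 FPKM (1.63), its 48 h libraries differing more from each other than those of the genes before it. Of 19 genes listed for the cornified envelope 8 could be tested and 3 rose: besides Sprr1a, Sprr2f went from 3.42 and 4.07 to 11.2 and 7.88 FPKM, and the row of Sprr2g, which also spans Sprr2e, from 3.91 and 4.71 to 9.82 and 6.96 FPKM. Lce1d, a late cornified envelope gene outside this list, was listed at 0 in both 24 h libraries and at 1.12 and 1.32 FPKM at 48 h. It was picked as the highest of 535 rows at 0 in both 24 h libraries and above 0 in both 48 h libraries. The other way round there were 34 such rows.

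**Figure D2:**
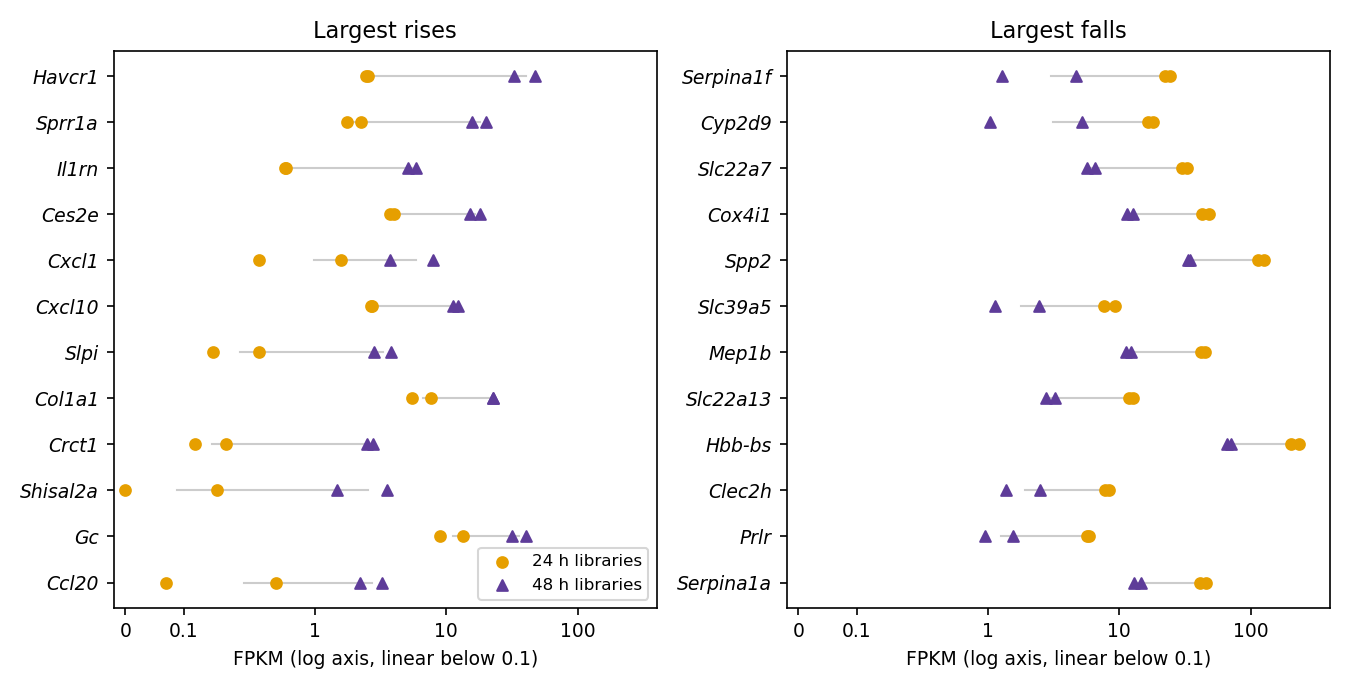
The FPKM of each library (x axis, log scale, linear below 0.1) for the 12 largest rises and the 12 largest falls, with circles for the 24 h and triangles for the 48 h libraries and a line between their means. No circle overlaps a triangle in any gene, which was fixed in advance by taking them from called rows. The libraries of 1 time lie visibly apart in Cxcl1, Ccl20, Shisal2a, Serpina1f and Cyp2d9, among others.

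Many chemokines and cytokines rose. Of 31 genes listed for cytokines, chemokines and NF-kB targets 25 were tested, 18 rose, none fell at the adjusted threshold and the median log2 difference was 0.46. In a fit of the 4 libraries alone 15 rose. The median lay between 0.39 and 0.55 when each library was left out in turn. Ccl2, which attracts monocytes, went from 1.98 and 2.45 to 7.37 and 8.30 FPKM (log2 difference 1.46 ± 0.108, limma adjusted p = 6.3e-05). Il1b, the secreted interleukin-1 beta, went from 2.11 and 3.23 to 8.41 and 8.78 FPKM (1.40 ± 0.140). Cxcl2, which attracts neutrophils, went from 1.63 and 1.66 to 3.98 and 4.26 FPKM (0.95 ± 0.0911). All 3 had 48 h libraries above both 24 h libraries, and so did Cxcl10, a T cell attractant induced by interferon, at 2.68 and 2.73 against 11.3 and 12.4 FPKM (1.79 ± 0.223, adjusted p = 0.00141). Ccl20, which attracts cells bearing Ccr6, was near 0 at 24 h (0.0706 and 0.503 FPKM) and reached 2.22 and 3.26 FPKM at 48 h (1.55 ± 0.182). Cxcl1 rose with the largest spread, from 0.376 and 1.57 to 7.96 and 3.75 FPKM (1.79 ± 0.444, adjusted p = 0.0370), and its adjusted p was 0.105 without 24 h library a, 0.102 without 48 h library a and 0.133 in a fit of the 4 libraries alone. The 2 attractants whose windows hold GGGAANTTC, a form of the NF-kB site, are printed next, again from RefSeq, GRCm38.p6, 5′ to 3′ on the gene's strand with the match in capitals. Cxcl1 lies on the plus strand (chr5:90891095-90891244, where matches on both strands overlap at -71 and -69) and Cxcl10 on the minus strand (chr5:92348890-92349089, match at -159). The letters occurred in 0.907% of all windows, in 2 of 58 windows (3.45%) of genes that rose at least 2-fold and in 3 of 110 (2.73%) of genes that fell at least 2-fold. Among all genes called higher the share was 0.941%, among all called lower 1.16%, and among all rows tested 0.872%.
Cxcl1: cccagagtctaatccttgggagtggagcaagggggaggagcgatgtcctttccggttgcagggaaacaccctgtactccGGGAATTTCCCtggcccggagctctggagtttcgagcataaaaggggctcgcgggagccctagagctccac
Cxcl10: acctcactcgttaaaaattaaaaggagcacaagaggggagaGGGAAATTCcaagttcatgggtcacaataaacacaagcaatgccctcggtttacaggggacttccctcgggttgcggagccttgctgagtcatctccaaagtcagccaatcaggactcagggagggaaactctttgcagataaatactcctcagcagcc

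Markers of the leukocytes that these attractants recruit were measured in the same libraries. Summed FPKM of 12 macrophage and monocyte genes with a row was 661 and 669.5 at 24 h and 715 and 699 at 48 h. Of 11 tested 3 rose, and 1 did without either 48 h library. In a fit of rows that keep to their own gene only 3 of them were tested, and none was called. Lyz2, the lysozyme of myeloid cells, stayed within its spread (15 and 15.2 against 15.5 and 14.5 FPKM, adjusted p = 0.965), while Chil3 in a row that also spans Chil4 went from 2.28 and 2.05 to 4.19 and 4.39 FPKM. Of 13 neutrophil genes 8 were tested and 3 rose, Lcn2 among them, and their summed FPKM was 140 and 129 at the earlier time against 220.2 and 230.2 at the later. The row of Lcn2, which tubule cells also express, made up most of that sum. The granule genes S100a8 (13.0 and 13.8 against 11.1 and 14.2 FPKM) and S100a9 (9.85 and 8.89 against 7.46 and 8.48 FPKM) were not called, with adjusted p of 0.635 and 0.144. T and NK cell genes summed to 2.41 and 1.83 FPKM at 24 h and to 2.93 and 2.69 FPKM at 48 h. The part of leukocytes in the chemokine values was not tested. Among 24 tested interferon-stimulated genes 6 rose and none fell, with a median of 0.19. Oasl1 went from 7.16 and 7.41 to 12.2 and 13.1 FPKM, and Irf7, the regulator of late interferon genes, from 18.8 and 17.8 to 28.9 and 29.0 FPKM. Without 48 h library a 3 rose, and without library b 3 rose and 1 fell.

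Injury markers rose further. Of 25 genes 23 had a row and 21 were tested, of which 18 rose and 1 fell, with a median log2 difference of 0.47, and 10 rose without 48 h library a. Clu, the secreted chaperone clusterin, went from 73.5 and 73.0 to 211 and 197 FPKM (log2 difference 1.46 ± 0.0696, limma adjusted p = 1.6e-05). Spp1, the matrix protein osteopontin, went from 635 and 670.1 to 1239 and 1305 FPKM (0.96 ± 0.0663). Cldn4, a tight junction claudin, went from 63.6 and 65.3 to 119.8 and 117 FPKM (0.87 ± 0.0615). Lcn2, the siderophore-binding urinary marker NGAL, went from 111 and 101 to 193 and 197 FPKM (0.88 ± 0.0651), in a row that also spans 1110008P14Rik. In all 4 both 48 h libraries were above both 24 h libraries, as no called row overlapped. The exception was the keratin Krt7, which fell from 36.0 and 35.2 to 31.1 and 28.1 FPKM (-0.26, adjusted p = 0.0226, but 0.0743 without 24 h library a and 0.137 without 48 h library b).

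**Figure D3:**
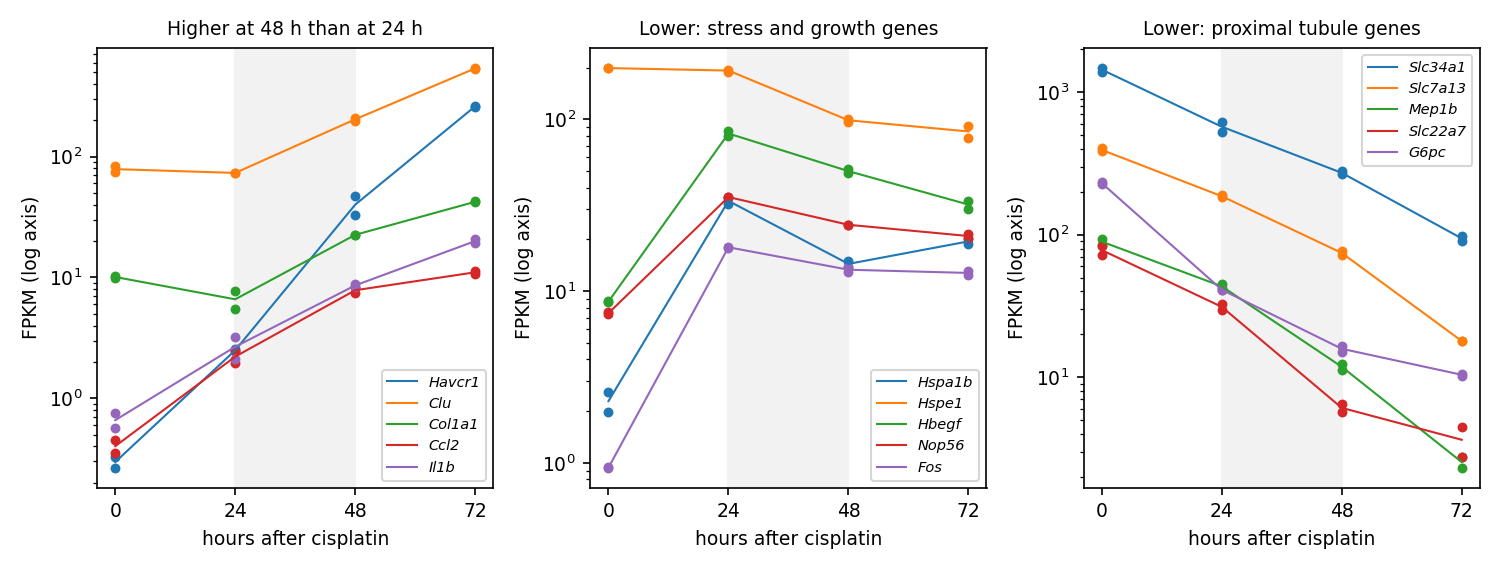
FPKM of single genes (y axis, log scale) in both libraries at 0, 24, 48 and 72 h after cisplatin (x axis), with the interval from 24 h to 48 h shaded. Lines join the means and points are libraries. The left panel shows genes that rose from 24 h to 48 h, the middle panel stress and growth genes that fell, and the right panel proximal tubule genes that fell.

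p53 targets rose on balance. All 30 genes of the list were tested, 16 rose, 1 fell (the damage sensor Xpc, whose call was lost when either 48 h library, or 24 h library a, was left out) and 13 were not called, with a median of 0.32. Without 48 h library a, and likewise without library b, 10 rose. Cdkn1a, the cyclin-dependent kinase inhibitor p21, went from 57.0 and 49.6 to 93.9 and 89.9 FPKM (log2 difference 0.78 ± 0.0963, limma adjusted p = 0.00066), in a row that reaches past the gene. Tnfrsf10b, the death receptor for TRAIL, went from 5.89 and 5.85 to 11.1 and 10.2 FPKM (0.76 ± 0.0845). Ei24, a membrane protein of the endoplasmic reticulum, went from 61.4 and 64.8 to 89.5 and 92.7 FPKM, and Psrc1, a microtubule-associated protein, from 3.81 and 3.44 to 7.11 and 6.35 FPKM. Each of these 4 had libraries that did not overlap, as in all called rows. Of 27 tested genes of DNA replication 7 rose and 1 fell, but 2 rose without 48 h library a and 4 without library b. Rrm2, a subunit of ribonucleotide reductase, went from 3.26 and 2.92 to 4.99 and 5.12 FPKM. Of 15 tested mitotic genes 1 rose, the spindle factor Tpx2 (0.228 and 0.269 against 1.01 and 0.844 FPKM), and 1 fell, and of 23 tested DNA repair genes 1 rose and 2 fell, with no fall left without 24 h library a or without either 48 h library.

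Stress genes did not move together. Metallothioneins, which bind zinc, copper and platinum, rose: Mt1 went from 89.5 and 82.9 to 178 and 189.6 FPKM (log2 difference 1.09 ± 0.0793) and Mt2 from 683 and 515 to 1006 and 998 FPKM (0.76 ± 0.117), while Mt3 was not called. Some chaperones fell. Of 17 tested heat shock genes none rose, 8 fell and 9 were not called, with a median of -0.23, and 7 fell and 2 rose after quantile normalisation. The row of Hspa1b, the inducible Hsp70, which also spans Hspa1a, fell from 34.8 and 32.2 to 13.9 and 14.9 FPKM (-1.16 ± 0.104, adjusted p = 0.00016), still above the 1.97 and 2.60 FPKM of the 0 h libraries. Hspe1, the mitochondrial co-chaperonin, fell from 189.8 and 195 to 96.5 and 101 FPKM (-0.95 ± 0.0798), and Hspd1, its partner Hsp60, from 186 and 176 to 122 and 130.0 FPKM (-0.52 ± 0.0772). The libraries of the times did not overlap in any of the 3, as in all called rows. Hspe1 and Hspd1 are read from neighbouring starts on opposite strands and their rows overlap, so reads there could be assigned to either. The window before Hspe1 is shown for the single match to GAANNTTC, the core of a heat shock element, at -84 (RefSeq, GRCm38.p6, chr1:55087998-55088147, plus strand, match in capitals). These letters stood in 6.69% of all windows and in 5.02% of windows of all rows tested. Among all genes called lower the share was 4.82%, and among all called higher 4.53%. They stood in 8 of 110 windows (7.27%) of genes that fell at least 2-fold and in 5 of 58 (8.62%) of genes that rose at least 2-fold.
Hspe1: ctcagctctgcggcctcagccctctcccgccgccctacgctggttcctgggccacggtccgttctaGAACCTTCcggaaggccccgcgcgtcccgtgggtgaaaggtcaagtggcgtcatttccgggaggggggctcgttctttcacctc
Of 25 tested unfolded protein response and integrated stress response genes 7 fell and 2 rose. None rose without either 48 h library, and the number that fell was 5 without 48 h library a, 3 without 48 h library b, 5 without 24 h library b and 4 without 24 h library a. Herpud1, which acts in degradation at the endoplasmic reticulum, fell from 59.3 and 49.4 to 27.9 and 28.4 FPKM (-0.92 ± 0.0924). Of 21 tested NRF2 targets 3 rose and 6 fell, a balance that turned to 7 and 2 after quantile normalisation and was 1 and 5 without 48 h library a and 0 and 4 without library b. Osgin1, an oxidative stress gene, fell from 20.4 and 17.9 to 12.2 and 12.1 FPKM.

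Growth and early response genes were divided as well. Of 17 tested immediate-early genes 4 rose (23.5%) and 3 fell (17.6%), beside 11.2% and 17.2% of all rows tested. Without 48 h library b 2 rose and 1 fell, and without 24 h library a 5 rose and 1 fell. Fos, a subunit of AP-1, fell from 18.1 and 17.9 to 13.7 and 12.9 FPKM (log2 difference -0.41 ± 0.0780), and the nuclear receptor Nr4a1 rose from 1.40 and 1.33 to 3.49 and 3.03 FPKM (0.85 ± 0.104). Of 8 tested EGF ligands and receptors 1 was called, the ligand Hbegf, which fell from 80.1 and 85.3 to 51.4 and 48.4 FPKM (-0.72 ± 0.0759, limma adjusted p = 0.0003). Nop56, a core protein of the complexes that modify ribosomal RNA, fell from 35.1 and 35.5 to 24.4 and 24.3 FPKM (-0.52 ± 0.0664), as 6 of 24 tested genes of ribosome biogenesis did, or 1 without 24 h library a. The Hbegf receptor Egfr, in a row that also spans Ppp3r1, was listed at 26.9 and 26.1 against 26.7 and 27.2 FPKM (adjusted p = 0.818). Among 26 tested genes of apoptosis and necroptosis 6 rose and 3 fell, but 1 rose and none fell without 48 h library b, 3 and none without 48 h library a, 2 and 3 without 24 h library b, and 4 and none without 24 h library a. Of 16 tested genes of ferroptosis and pyroptosis 6 rose and 2 fell, or 1 fell without 24 h library a or without either 48 h library. Acsl4, which loads polyunsaturated fatty acids into phospholipids, rose from 11.9 and 14.1 to 19.6 and 20.8 FPKM, and Gpx4, the peroxidase that reduces phospholipid hydroperoxides, fell from 615 and 586 to 425 and 413 FPKM (-0.52 ± 0.0585).

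Matrix genes rose. Of 26 tested matrix and fibrosis genes 17 rose and none fell, with a median of 0.70, and 16 to 19 rose when each library was left out in turn. Col1a1, a chain of fibrillar type I collagen, went from 7.69 and 5.50 to 22.6 and 22.5 FPKM (log2 difference 1.65 ± 0.121, limma adjusted p = 6e-05). Col6a2, a chain of type VI collagen, went from 1.22 and 1.15 to 4.05 and 4.00 FPKM (1.20 ± 0.0927). Bgn, the small proteoglycan biglycan, went from 23.7 and 18.8 to 57.0 and 50.9 FPKM (1.31 ± 0.106). These 3 were lower at 24 h than at 0 h, where Col1a1 was listed at 10.3 and 9.87, Col6a2 at 1.94 and 1.67 and Bgn at 35.1 and 32.9 FPKM. Markers of fibroblasts rose beside them: 5 of 8 tested rose, none fell, and the sum over 10 was 107 and 86.7 FPKM at 24 h against 151 and 145 FPKM at 48 h. Pdgfra, their surface receptor, went from 3.13 and 3.48 to 6.79 and 6.74 FPKM (0.85 ± 0.0848), while the proteoglycan Dcn did not pass the test (34.7 and 30.1 against 30.3 and 29.1 FPKM, adjusted p = 0.369). The part of fibroblasts in the matrix values was not tested. Of 8 tested genes of the fibrinogen and urokinase system 5 rose and 1 fell. Fgg, a fibrinogen chain, went from 1.28 and 1.26 to 4.18 and 4.58 FPKM, Plat, the tissue plasminogen activator, from 47.1 and 46.5 to 74.7 and 75.2 FPKM, and Plaur, the urokinase receptor, from 27.8 and 24.9 to 37.6 and 36.2 FPKM. Urokinase itself, Plau, was the 1 lower (156 and 146 against 130.1 and 129.8 FPKM), and after quantile normalisation its difference was above 0.

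Among the 12 largest falls were carriers, secreted proteins and haemoglobin. Slc22a7, an organic anion transporter, fell from 29.8 and 32.6 to 6.51 and 5.69 FPKM, a 5.11-fold fall in the means (log2 difference -2.18 ± 0.172, limma adjusted p = 0.00017). Spp2, a secreted phosphoprotein, fell from 127 and 115 to 33.4 and 34.5 FPKM (-1.80 ± 0.0711), and Prlr, the prolactin receptor, from 5.64 and 5.91 to 1.56 and 0.945 FPKM (-1.60 ± 0.135). In all 3 the times were far apart. Serpina1f, a serpin, had the largest fall among the rows called (-2.74 ± 0.435) but uneven 48 h libraries, 1.29 and 4.71 FPKM after 24.1 and 22.3, and its adjusted p was 0.0115, rising to 0.0578 without 24 h library a and to 0.0889 in a fit of the 4 libraries alone. The row of Cyp2d9, which also spans Cyp2d12, fell from 18.1 and 16.6 to 1.04 and 5.18 FPKM, with an adjusted p of 0.0357 that became 0.125 without 24 h library a and 0.0944 without library b. The row of the serpin Serpina1a, which spans 4 related genes, fell from 45.9 and 40.9 to 12.9 and 14.7 FPKM. The zinc carrier Slc39a5 fell from 9.19 and 7.68 to 1.14 and 2.43 FPKM, and the lectin Clec2h from 8.29 and 7.74 to 2.49 and 1.37 FPKM. Hbb-bs, a beta globin of red cells in a row that also spans Hbb-bt, fell from 202 and 233 to 71.4 and 65.6 FPKM (-1.65 ± 0.0888).

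Carriers of the proximal tubule fell almost throughout the list. Of 38 tested transporters and endocytic receptors 33 fell and 1 rose, with a median log2 difference of -0.61 against -0.03 for all rows tested. Slc34a1 fell 2.11-fold in the means (log2 difference -1.07 ± 0.0837, limma adjusted p = 7.9e-05), and Slc22a2, the cation transporter that takes up cisplatin, fell from 54.8 and 57.8 to 29.2 and 27.4 FPKM (-0.97 ± 0.0704). Slc22a13, an anion transporter in a row that reaches past the gene, fell from 12.7 and 11.9 to 3.22 and 2.75 FPKM (-1.74 ± 0.0929). Slc1a1, a glutamate carrier, fell from 41.5 and 43.7 to 20.9 and 22.9 FPKM, and Amn, the partner of cubilin, from 81.5 and 68.4 to 34.1 and 35.1 FPKM. None of these overlapped between the times, as was so in all called rows. Lrp2 was 1 of the 4 not called (-0.20 ± 0.162, adjusted p = 0.416), with 24 h libraries of 563 and 415 FPKM on either side of the 459 FPKM of 48 h library b. Its difference was 0.02 without 24 h library a. The exception in direction was Slc20a2, a phosphate carrier with wide expression, which rose from 7.06 and 7.97 to 10.3 and 10.6 FPKM (0.43 ± 0.0810).

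Markers of the early and of the late proximal tubule fell. Of 11 tested markers of the early segments S1 and S2 10 fell, with a median of -0.88. Of 12 tested markers of the straight segment S3 10 fell, with a median of -0.85, while Gc rose and Cyp7b1 was not called. Slc5a2, the glucose carrier SGLT2 of the early tubule, fell from 48.3 and 36.9 to 15.8 and 19.1 FPKM (log2 difference -1.23 ± 0.141, limma adjusted p = 0.00058). Slc7a13, an amino acid carrier of S3, fell from 189.6 and 183 to 76.7 and 72.4 FPKM (-1.31 ± 0.0621). No test compared the segments. Of 18 tested brush border genes 14 fell and 1 rose, with a median of -0.67. Mep1b and Mep1a, the subunits of the metalloprotease meprin, fell from 42.2 and 44.8 to 12.4 and 11.3 FPKM (-1.79 ± 0.0918) and from 313 and 317 to 156 and 154 FPKM (-1.02 ± 0.0578). Cltrn (collectrin), which traffics amino acid carriers, fell from 891 and 956 to 555 and 551 FPKM, after 838 and 873 FPKM at 0 h. The gene that rose, Naalad2, is a peptidase at a low level (0.430 and 0.547 against 1.21 and 1.32 FPKM). Of 16 tested tubule transcription factors 4 fell and 1 rose, 2 fell without 48 h library a, and none rose without any 1 of the 4 libraries. Maf, a leucine zipper factor in a row that reaches past the gene, fell from 11.5 and 11 to 8.84 and 8.74 FPKM (-0.33 ± 0.0696, adjusted p = 0.00930).

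**Figure D4:**
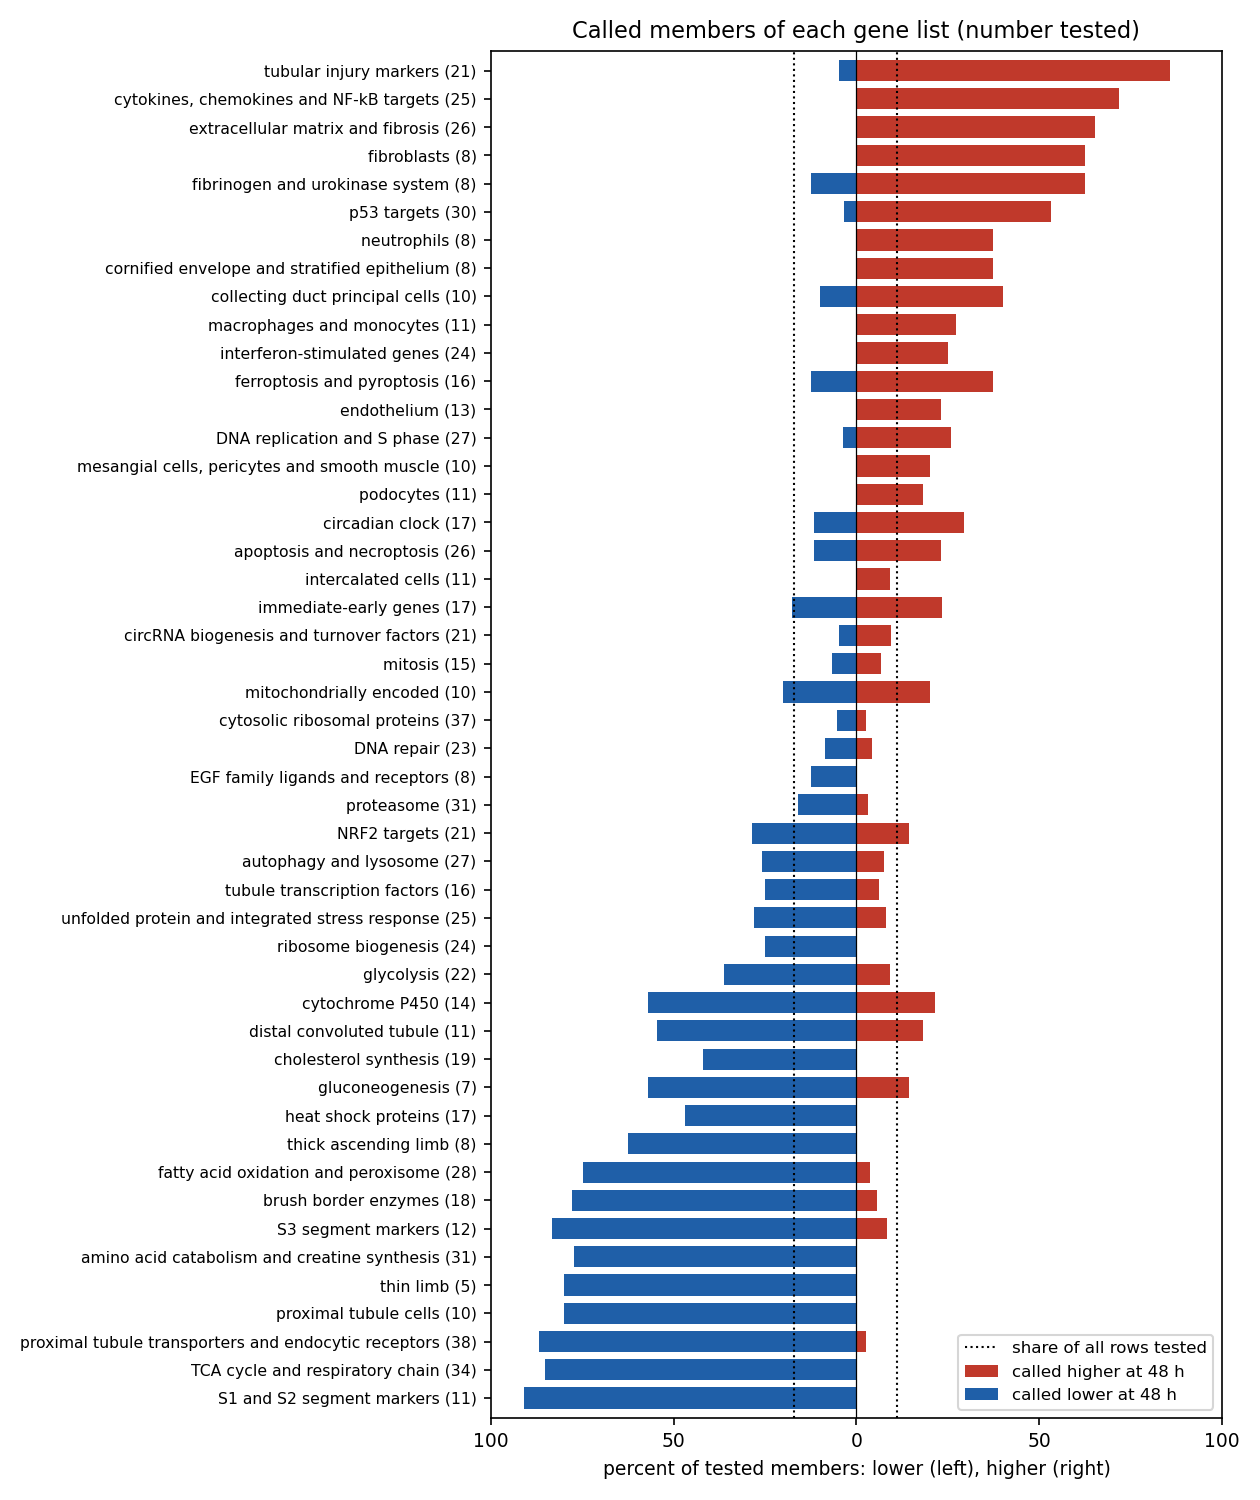
For each gene list, named with the number of members tested, bars give the percent of tested members called lower (to the left) and called higher (to the right), and dotted lines give the 17.2% lower and 11.2% higher of all rows tested. Lists of the tubule and of mitochondrial metabolism extend to the left, and injury markers, chemokines and matrix extend to the right.

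Enzymes of energy metabolism fell broadly. Of 28 tested genes of fatty acid oxidation and peroxisomes 21 fell and 1 rose, with a median of -0.52. Acadm, the medium-chain acyl-CoA dehydrogenase, fell from 294 and 283 to 152 and 142 FPKM (log2 difference -0.97 ± 0.0734, limma adjusted p = 6.8e-05), and Acsm1, a medium-chain acyl-CoA synthetase, from 58.6 and 56.1 to 25.1 and 26.8 FPKM (-1.11 ± 0.0658). The 1 that rose was Pdk4, the kinase that shuts off pyruvate dehydrogenase, at 17.4 and 17.5 against 33.8 and 32.1 FPKM (0.88 ± 0.0729). The libraries of the times were apart in all 3. Of 34 tested nuclear genes of the citric acid cycle and respiratory chain 29 fell and none rose, with a median of -0.43, but after quantile normalisation 11 fell and 1 rose. Idh2, the mitochondrial isocitrate dehydrogenase, fell from 97.9 and 87.1 to 55.2 and 54.4 FPKM (-0.74 ± 0.0691). Cox4i1, a subunit of cytochrome oxidase, fell from 42.9 and 47.9 to 11.4 and 12.8 FPKM (-1.83 ± 0.105), below the 26.4 and 22.9 FPKM at 0 h. Of 10 rows encoded in mitochondrial DNA 2 rose and 2 fell. mt-Nd5, a subunit of complex I, went from 1727 and 2012 to 2536 and 2599 FPKM, and mt-Nd3, another, from 11780.0 and 13139 to 8218 and 7627 FPKM, but neither was called after quantile normalisation (adjusted p = 0.303 and 0.444). Without 48 h library b 1 of the 10 rose and 1 fell, without 48 h library a 3 rose and 1 fell, and without 24 h library a 2 rose and 1 fell. mt-Co1 was listed at 0 in all 4 libraries but at 19149 and 18120 FPKM at 0 h and at 16678 and 17071 FPKM at 72 h, so these 0 values may be failed estimates and are not read as levels. Of 31 tested genes of amino acid catabolism and creatine synthesis 24 fell and none rose, with a median of -0.58. Ass1, which makes the arginine precursor argininosuccinate, fell from 440.1 and 376 to 191 and 193 FPKM, and Prodh2, a hydroxyproline dehydrogenase, from 23.6 and 19.3 to 7.93 and 8.72 FPKM. Of 19 tested genes of cholesterol synthesis 8 fell and none rose, with a median of -0.33, among them Cyp51, the lanosterol demethylase (50.6 and 46.3 against 22.3 and 22.6 FPKM).

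Genes of glucose output fell on balance, and of the glycolysis genes more fell than rose before quantile normalisation. Of 7 tested genes of gluconeogenesis 4 fell and 1 rose, with a median of -0.55. G6pc, the glucose-6-phosphatase that releases free glucose, fell from 41.2 and 41.1 to 15.1 and 16.6 FPKM (log2 difference -1.32 ± 0.0687, limma adjusted p = 1.7e-05), after 234 and 227 FPKM at 0 h. Slc37a4, which brings glucose-6-phosphate to that enzyme, fell from 52.5 and 54.0 to 22.4 and 24.4 FPKM (-1.15 ± 0.0734), and Pck1, which makes phosphoenolpyruvate, from 276 and 232 to 159 and 155 FPKM (-0.68 ± 0.0903). The times did not overlap in any of these, as in all called rows. The isoenzyme Fbp2, known from muscle, rose from 2.92 and 3.26 to 4.36 and 4.91 FPKM, with an adjusted p of 0.00888 that became 0.0629 without 48 h library b. Of 22 tested glycolysis genes 2 rose and 8 fell, and 2 rose and 2 fell after quantile normalisation, and 5 fell without 48 h library b. Pfkfb3, which makes the activator of phosphofructokinase, rose from 2.99 and 3.33 to 6.46 and 7.30 FPKM (0.92 ± 0.0968), and the hexokinase Hk2 from 0.525 and 0.474 to 1.14 and 1.03 FPKM (0.48 ± 0.0923). Khk, the fructokinase of the proximal tubule, fell from 254 and 237 to 153 and 146 FPKM (-0.71 ± 0.0624).

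Markers of other parts of the nephron and of other cells went in both directions. Of 10 tested proximal tubule markers 8 fell and none rose, with a median of -0.91. Of 8 tested markers of the thick ascending limb 5 fell and none rose, with a median of -0.57, and of 11 tested markers of the distal convoluted tubule 6 fell and 2 rose, or 3 and none without 48 h library b and 4 and none without 24 h library a. Slc12a1, the sodium-potassium-chloride carrier of the thick limb, fell from 133 and 134 to 74.3 and 74.2 FPKM (log2 difference -0.84 ± 0.0568, limma adjusted p = 4.3e-05), and the distal calcium-binding protein Calb1 from 73.1 and 84.8 to 42.3 and 45.1 FPKM (-0.83 ± 0.0866). Both sets of libraries were apart. Kl (Klotho), the co-receptor of a phosphate-regulating hormone, fell from 59.0 and 56.9 to 33.6 and 32.9 FPKM. Of 10 tested markers of principal cells of the collecting duct 4 rose and 1 fell, and 2 rose without 24 h library b or without 48 h library b. Hsd11b2, which inactivates glucocorticoids in these cells, rose from 2.53 and 2.37 to 6.54 and 5.51 FPKM (1.02 ± 0.0938), still below the 22.2 and 20.6 FPKM at 0 h. Aqp3, a basolateral water channel, rose from 16.9 and 16.8 to 25.6 and 23.4 FPKM (0.51 ± 0.0788). Of 13 tested endothelial markers 3 rose and none fell, with a median of 0.10. Flt1, a receptor for VEGF, went from 6.11 and 6.58 to 13.4 and 12.3 FPKM (0.92 ± 0.0847). Of 11 tested podocyte markers 2 rose, of 11 tested intercalated cell markers 1 rose, calls that leaving out single libraries ended, and of 4 tested red cell genes 2 fell, their sum being 205 and 236 FPKM at 24 h and 73.0 and 67.6 FPKM at 48 h. What share of these changes reflects the mix of cells in each isolate was not tested.

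Few circular RNAs passed the test. Of 1574 circRNAs above 0 in at least 4 libraries, 1 was higher at 48 h (0.0635% of those tested) and 2 were lower (0.127%) by edgeR's quasi-likelihood test with Benjamini-Hochberg adjustment. Counts summed to 17057 and 17348 at 24 h and to 21024 and 17048 at 48 h, and 94 circRNAs had an unadjusted p under 0.05, against 37 with DESeq2. The circRNA with back-splice ends at chr15:9311749-9365377 joins a position in Ugt3a1 to one in Ugt3a2, adjacent UDP-glycosyltransferase genes, and fell from 276 and 305 to 172 and 146 reads, 2.01-fold after normalisation (log2 difference -1.01 ± 0.154, adjusted p = 1e-07). The linear row named Ugt3a2, which spans both genes, also fell, from 404 and 396 to 215 and 208 FPKM (-0.92 ± 0.0811). The circRNA at chr4:96583977-96658752 joins Cyp2j9 to Cyp2j5, epoxygenases of arachidonic acid, and fell from 201 and 182 to 111 and 110.0 reads (-0.92 ± 0.177, adjusted p = 0.00016), but not at the adjusted threshold without 48 h library a (adjusted p = 0.302). The linear row of the Cyp2j cluster, named Cyp2j9, fell from 624 and 585 to 349 and 336 FPKM (-0.82 ± 0.0629). In neither case did the libraries of the times overlap, which adds nothing to the calls. These positions lie in families of near-identical genes, where reads could be assigned to a wrong copy. The circRNA that rose lies on the unplaced scaffold JH584304.1 (25369 to 59773), had 10 and 2 reads at 24 h and 39 and 19 at 48 h (adjusted p = 0.0494), and did not pass with DESeq2 (adjusted p = 0.999), without 24 h library b (0.346), without 48 h library a (0.968) or without 48 h library b (0.0614).

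No circRNA departed from the linear RNA of its gene at the adjusted threshold. For 1224 circRNAs within 1 gene with a tested row, 0 ratios of circular to linear RNA were called (0% of those tested) by limma with Benjamini-Hochberg adjustment, with 91 at an unadjusted p under 0.05. The 83 circRNAs from 55 genes whose linear row fell had a median log2 difference of 0.04, beside -0.37 for the linear rows. The 129 circRNAs from 98 genes whose linear row rose had a median of 0.06, beside 0.40. Both groups were formed by the call of the linear row, which by itself sets the linear medians away from 0. The contrast is therefore no test of whether circular and linear RNA moved apart. The median over all circRNAs tested was 0.05. The most abundant circRNA, from the sodium-calcium exchanger gene Slc8a1, had 809 and 745 reads at 24 h and 863 and 819 at 48 h (-0.02 ± 0.122, adjusted p = 0.983), while its linear row fell from 10.9 and 10.5 to 7.34 and 7.39 FPKM. The circRNA of Aass, an enzyme of lysine breakdown, had 191 and 204 against 296 and 226 reads and was not called, and its linear row fell from 82.3 and 76.8 to 57.1 and 60.5 FPKM. For both genes the ratio did not pass the test (adjusted p = 0.649 and 0.717). Among circRNAs of few reads, that of Lrmda went from 12 and 6 to 1 and 0 reads (adjusted p = 0.0587) while its linear row fell from 5.14 and 5.25 to 1.73 and 1.02 FPKM, and that of Cnksr3, a scaffold of sodium transport regulation, from 2 and 3 to 12 and 18 reads (adjusted p = 0.196). Neither passed the adjusted threshold. Both were picked for a small unadjusted p, so the lack of overlap between their 24 h and 48 h counts adds nothing.

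**Figure D5:**
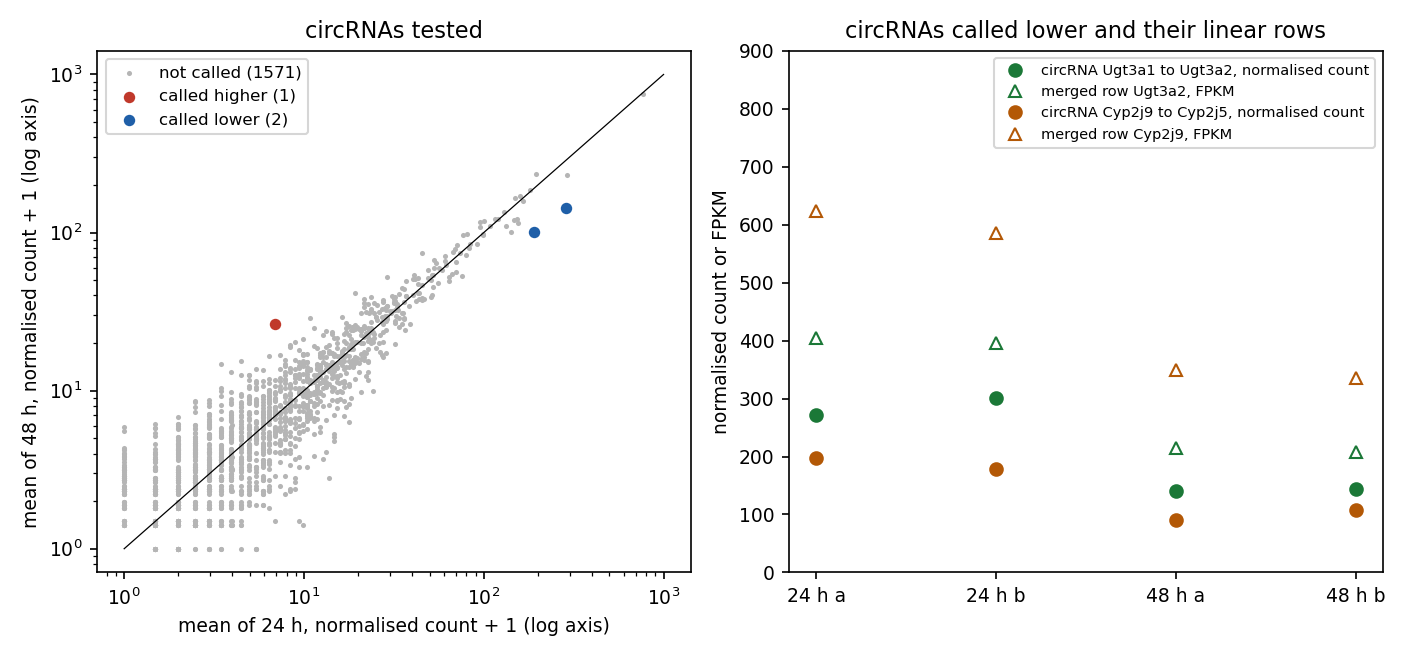
Left, the mean normalised count + 1 of each tested circRNA at 24 h (x axis) and 48 h (y axis), on log axes with the line of equality and the 3 called circRNAs marked. Right, the normalised counts of the 2 circRNAs called lower and the FPKM of the linear rows Ugt3a2 and Cyp2j9 in the 4 libraries, all lower in both 48 h libraries.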

How the data were processed

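The series measured linear and circular RNA in 8 libraries, of which the 2 at 24 h and the 2 at 48 h were compared. FPKM per gene row was deposited by the authors in 1 table of 21874 rows, and counts per back-splice in another of 2163 circRNAs, deposited by the authors as whole numbers. The authors' own name for the circRNA table calls it normalised, but its values are whole and sum to different totals per library, so they were treated as raw counts; if they had been scaled, the edgeR tests and the word reads would not hold strictly. The submitters' processing notes name Bowtie 0.12.2, TopHat2, Cufflinks and the mm10 build; the circRNA caller, annotation and strand setting are not given in the sources used here. Of the columns with values per sample, 8 were not used.

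Groups came from the labels. FPKM was tested with limma 3.58.1 (trend, robust, R 4.3.3) on log2(FPKM + 1), 1 fit of 8 libraries, for rows of at least 1 FPKM in at least 2, so fold changes of low genes are understated. circRNA counts were tested with edgeR 4.0.16 (TMM, quasi-likelihood), with DESeq2 1.42.0 as an alternative. Ratios of circular to linear RNA were differences of the 2 log2 values, with 1 added to each, also tested with limma. Calls had a Benjamini-Hochberg adjusted p under 0.05. The code was tested on simulated data.

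Of the rows tested, 6546 kept within 2000 bases of their own gene, 2400 reached past it, 1539 also spanned another protein-coding gene and 272 had no gene span to compare. The lists held 1039 genes, of which 933 had a row and 831 were tested. They, the libraries compared and the rule for named genes were chosen with earlier results of these data known. That rule took the 12 largest rises and falls among called rows with ordinary symbols, up to 4 members of each list in each direction by smallest p, and 7 anchor genes, of which Umod had no row. Other genes named with values, such as uncalled members and partner genes, were chosen after their values were seen. Alternatives changed the pseudocount, filter, scaling, libraries and rows. Some results are not reported here.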

Additional observations from a re-analysis of the deposited data

How the results depend on the processing

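The direction and call held in 2040 of 2302 values of 219 named genes under the alternatives, 254 lost the call and 8 changed sign. No call was lost for 136 genes, a count that includes Lrp2, which was never called. Genes whose rows did not keep to their own gene had no value in the fit of rows that do. Leaving out each library in turn gave 632 to 902 rows higher and 1162 to 1979 lower. Rows that keep to their own gene gave 785 higher and 986 lower, of fewer rows tested. The difference of Lrp2 became 0.0703 after quantile normalisation and lay between -0.4163 and 0.0245 when each library was left out in turn. Quantile normalisation also turned Plau to 0.0584, Mcl1 to 0.0352, mt-Co2 to 0.2014, Rps25 to 0.0584, Rpl5 to 0.0064 and Psmb6 to 0.054, and the cause was not tested. The 1 circRNA higher became 0 with DESeq2, with DESeq2 size factors, with no filter and in a fit of the 4 libraries alone, and 0 to 4 without each library, while the 2 lower became 1 to 4. No ratio of circular to linear RNA was called under any alternative run for it. No paired analysis was possible because the columns carry the letters a and b and not the replicate numbers of the labels. With 2 libraries a group, an exact permutation test of a single value cannot fall under 0.33 and was not used.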

Other observations

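Other groups were measured in the same libraries. Of 37 tested cytosolic ribosomal protein genes 1 was higher and 2 were lower, with a median of -0.04, but 19 were higher after quantile normalisation and 10 were lower without 24 h library b. Of 31 tested proteasome genes 1 was higher and 5 were lower, and after quantile normalisation 6 were higher and 1 lower. Without 24 h library b 9 were lower, and without 24 h library a or 48 h library a 3 were. Of 27 tested autophagy and lysosome genes 2 were higher and 7 lower, or 4 and 5 after quantile normalisation, and 1 was higher without 24 h library b or without either 48 h library. The lysosomal protease row Ctsd, which also spans Ifitm10, rose from 366 and 368 to 483 and 473 FPKM, while Lamp2, a lysosomal membrane protein, fell from 191 and 195 to 129 and 131 FPKM and Gabarapl1, which coats autophagosomes, from 140.4 and 134 to 85.4 and 82.9 FPKM. Of 17 tested circadian clock genes 5 were higher and 2 lower, or 1 and 1 without 48 h library b, 2 and 1 without 48 h library a, 3 and 2 without 24 h library b and 3 and 0 without 24 h library a. The clock repressor Cry1 rose from 2.26 and 2.55 to 3.86 and 3.79 FPKM. Of 14 tested cytochrome P450 rows 3 were higher and 8 lower, with a median of -0.49, and 1 was higher without 24 h library a. In a fit of rows that keep to their own gene only 4 of them were tested, 2 higher and 2 lower, with a median of 0.0973. The steroid and xenobiotic enzyme Cyp1b1 rose from 9.16 and 7.18 to 16.2 and 14 FPKM, and Cyp27a1, a sterol hydroxylase whose row reaches past the gene, fell from 10.5 and 9.63 to 6.01 and 5.94 FPKM. Of 21 tested genes for factors of circRNA biogenesis and turnover 2 were higher and 1 lower, among them the splicing factor Mbnl1, at 17.8 and 20.5 against 25.7 and 24.9 FPKM.

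The 3 rows with the largest rises after Havcr1 (Gm10717, Gm10718 and Gm10719) were predicted genes at the start of chromosome 9, singled out after their values were seen. Of 9 predicted-gene rows between positions 3000922 and 3038316 of that chromosome, 5 were tested and 5 were higher at 48 h. Gm10718 was listed at 7.29 and 6.38 FPKM at 24 h and at 47.1 and 58.5 FPKM at 48 h, and Gm10717 at 0.457 and 0.719 against 9.93 and 10.3 FPKM. Their sum over the 9 rows was 1.48 and 1.88 FPKM in the 0 h libraries, 15.1 and 12.3 FPKM in those of 24 h, 109 and 124 FPKM in those of 48 h, and 22.4 and 20 FPKM in those of 72 h. The region is known for satellite repeats, and reads could be split among copies. The count of olfactory and vomeronasal receptor rows above 0 was also highest at 48 h, where 352 and 314 of 1325 were, compared with 71 and 91 for 24 h, 34 and 38 for 0 h and 101 and 90 for 72 h. In all, 535 rows were at 0 in both 24 h libraries and above 0 in both 48 h libraries, none above 1.32 FPKM, against 34 rows the other way round.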
